A study of Danio rerio with 2 samples.

Results

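Translation factors and aminoacyl-tRNA synthetases were examined in pigment cells from adult zebrafish fins. The genes were taken by symbol: those for initiation factors (eif), elongation factors (eef), the release factors etf1 and gspt, and the cytosolic and mitochondrial tRNA synthetases. Of 15502 transcript probe sets, 117 met this rule, and they report 89 genes of the 8793 that have a symbol of their own on the array. By class these were 46 initiation factors, 5 regulators that carry an eif symbol, 10 elongation factors, 3 other genes with an eef symbol, 3 release factors, 17 cytosolic synthetases and 5 mitochondrial synthetases.

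The study set melanophores, the black pigment cells, against xanthophores, the yellow ones, with 1 Affymetrix array for each preparation. Both preparations came from the caudal and anal fins of wild-type adults over 2 months old bought in a pet shop, and 1000 fish supplied the fins, so each array is a pool. Fins were digested with trypsin and collagenase, and cells were then separated by centrifugation or by a cell sorter, without a statement of which method gave which sample. The labels contradict each other: the sample titled melanophores is described as xanthophores in its source name and cell type, and the sample titled xanthophores as melanophores. Here each array goes by its title alone: MEL is the array titled melanophores, XAN the array titled xanthophores, and every ratio is MEL over XAN. MEL and XAN thus name arrays and not cell types. With 1 array for each title no test was possible, and no difference below has a replicate check.

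Translation starts when eIF2 brings the initiator tRNA to the small ribosomal subunit, to which eIF3 also binds. The eIF4 proteins bind the cap of the messenger RNA and unwind its leader. Elongation factors eEF1A and eEF2 then deliver charged tRNAs and move the ribosome, the synthetases charge those tRNAs, and eRF1 with eRF3 ends the chain. In vertebrates, messenger RNAs for ribosomal proteins, elongation factors and several initiation factors are known to share a pyrimidine-rich start that places their translation under the TOR kinase.

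Values are MAS 5.0 signal intensities, which depend on each probe set, so a signal is compared between the arrays and not between genes. A gene counted as measured if its signal reached the array median, 47.2 on MEL or 43.5 on XAN, on at least 1 of the arrays. Dimmer signals were raised to that floor before the log2 ratio, and the ratio is then a lower bound. The only error available is technical. It was taken from bright probe sets, at or above the 75th percentile of signals on at least 1 array. Those of the same gene differed in log2 ratio with an SD of 0.38 (205 genes), a factor of 1.30. Dim probe sets are not covered by it. MEL was brighter as a whole. The median log2 ratio of the 5504 measured genes was 0.36, and that of 18 probe sets for spike-in controls was 0.38 (range 0.18 to 0.97). Probe sets for the same control are not independent. A ratio near 0.36 is therefore that of the typical gene, and counts are given both as deposited and with spike-ins equalised, that is, with XAN signals multiplied by 1.30 so that the spike-in medians match.

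Marker genes of other cells also differed between the arrays. The summed signal of 6 connective tissue and bone markers was 3670 on MEL and 16931 on XAN, and that of 3 endothelial markers was 3343 against 814. Keratinocyte markers summed to 19691 against 15386 (7 genes), a sum that krt8 dominates (11558 and 10947). Of these 7, cdh1 (1949 and 464), krt5 (3215 and 1085) and cldnb (122 and 24.2) were 2-fold or more brighter on MEL, and krt4 (1648 and 1968) was brighter on XAN. The sums were 690 against 430 for 6 leukocyte markers, with ptprc and lcp1 under the floor on both arrays, and 113 against 1141 for 2 globins. Of the measured leukocyte markers, cd74a (285 and 117), cd74b (202 and 72.6) and coro1a (126 and 64.2) were brighter on MEL. In contrast cxcr4b (40.9 and 114) was 2-fold or more brighter on XAN. Of the pigment markers, 5 xanthophore genes summed to 6292 against 359. The 3 melanin genes summed to 100.4 against 632.5, a difference carried by dct (50.1 and 590), while tyr (48.4 and 39.2) was near the floor and pmelb under it on both arrays. The 5 xanthophore genes were thus brighter on the array titled melanophores, and dct on the array titled xanthophores. Both directions are those of the source names and cell types, not of the titles. Which label is right was not tested. What part these other cells had in the results below was not tested, and fewer cells of a type cannot be told apart from less RNA in each cell.

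Of the 89 genes, 82 were measured and 7 were under the floor on both arrays. As deposited, 10 of the 82 (12.2%) were 2-fold or more brighter on MEL, where 15.5% of all measured genes were. A further 2 (2.44%) were 2-fold or more brighter on XAN, against 4.09% of all measured genes. With spike-ins equalised the balance turned over: 1 member (1.22%) was 2-fold brighter on MEL, against 6.56% of all measured genes, and 10 (12.2%) on XAN, against 8.21%. The members' median log2 ratio was 0.16, under the 0.36 of all measured genes, and 24 of 82 lay among the lowest 25% of all ratios. These totals hide a partial split by role. Most subunits of eIF3 and most bright elongation factors lay low, together with ribosomal protein genes. Cap-binding, scanning and subunit-joining factors lay high, apart from eif4e3 and eif5, and the synthetases stayed close together. The eIF3 genes eif3s10 (0.12), eif3hb (0.05), eif3eb (0.57), eif3ja (0.53) and eif3jb (0.93) lay higher than the rest of that complex. Outside it, eif4a1b (-0.66) and eif2s1b (-0.65) lay low as well.

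**Figure D1:**
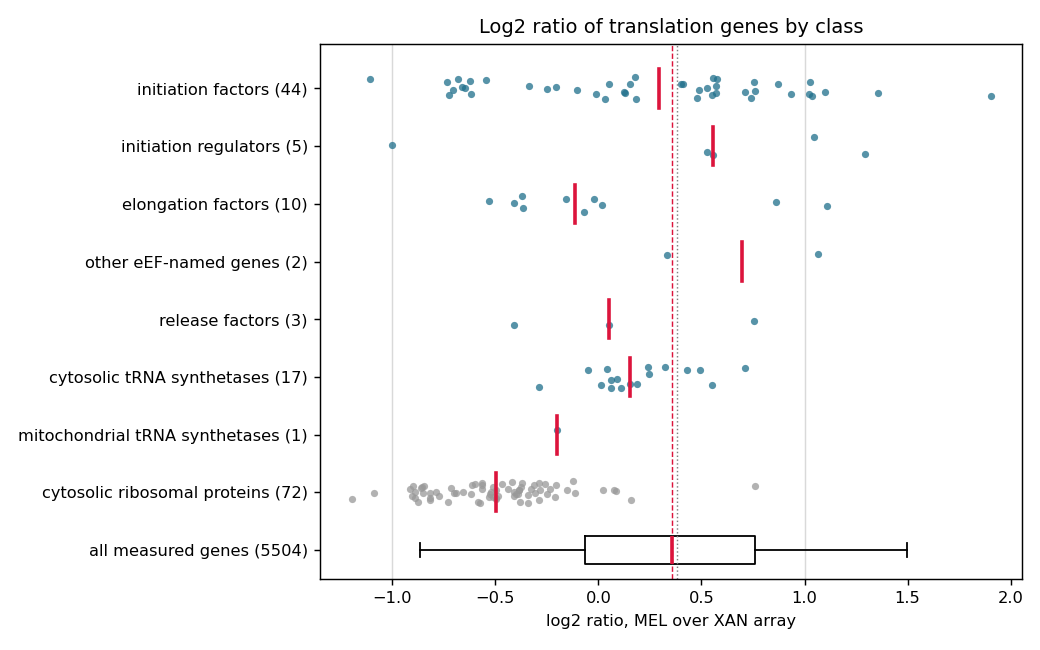
Log2 ratio (MEL over XAN, horizontal axis) of each measured gene by class, with the number of genes in brackets. Points are genes, red bars class medians, the box spans the middle of all 5504 measured genes with whiskers at their 5th and 95th percentiles, the dashed line is the all-gene median of 0.36, the dotted line the spike-in median of 0.38, and pale lines mark 2-fold. Initiation factors spread from -1.11 to 1.90, whereas cytosolic synthetases lie between -0.29 and 0.71.

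The eIF3 complex was brighter on XAN in most of its subunits. Of 12 measured genes for subunits a to i and m, 9 lay among the lowest 25% of all ratios and 11 lay below the all-gene median, and their median log2 ratio was -0.62 (-0.12 if ribosomal protein genes are set equal). The subunit eif3d, which in human cells can itself bind the cap of some messages, had signals of 2460 on MEL and 4066 on XAN, a log2 ratio of -0.72. For eif3g, an RNA-binding subunit, the signals were 1907 and 3115 (-0.71), and for its partner eif3i 1718 and 2757 (-0.68). These subunits form a module with eIF3b, whose gene eif3ba stood apart from them at 2824 and 3032 (-0.10).

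Most measured subunits of the octamer that forms the body of eIF3 followed a like course. No gene for subunits k or l was among the members. The scaffold subunit eif3c gave 1441 and 2104 (-0.55), eif3ea 1210 and 2014 (-0.73), eif3f 1375 and 2114 (-0.62) and eif3m 1687 and 2593 (-0.62). The lowest ratio of all members was that of eif3ha, with 231 and 498.5, a 2.16-fold difference towards XAN (2.81-fold with spike-ins equalised). Only 201 of the 5504 measured genes had a lower ratio. The largest scaffold subunit, eIF3a, listed on the array as eif3s10, was an exception at 2484 and 2281 (0.12). Each of the 14 eIF3 genes, subunit j included, had 1 probe set, so none had a check from another probe set.

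Subunit j, which binds eIF3 loosely and is not needed to hold the complex together, went the other way. Its duplicates eif3ja (959 and 667) and eif3jb (496 and 260) had log2 ratios of 0.53 and 0.93. The other paralogs of the low subunits also lay higher: eif3eb stood at 68.9 and 46.3 (0.57), close to the floor, and eif3hb at 168 and 162.5 (0.05). Against the other 32 measured initiation factors, whose median was 0.54, the 12 genes of subunits a to i and m were lower by 1.16 on the log2 scale. No scaling that multiplies an array by a constant can alter this difference, so such settings do not test it. Over all 12 alternative settings it ran from -1.16 to -1.02. This comparison, with subunit j among the other factors, was added after seeing the data.

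**Figure D2:**
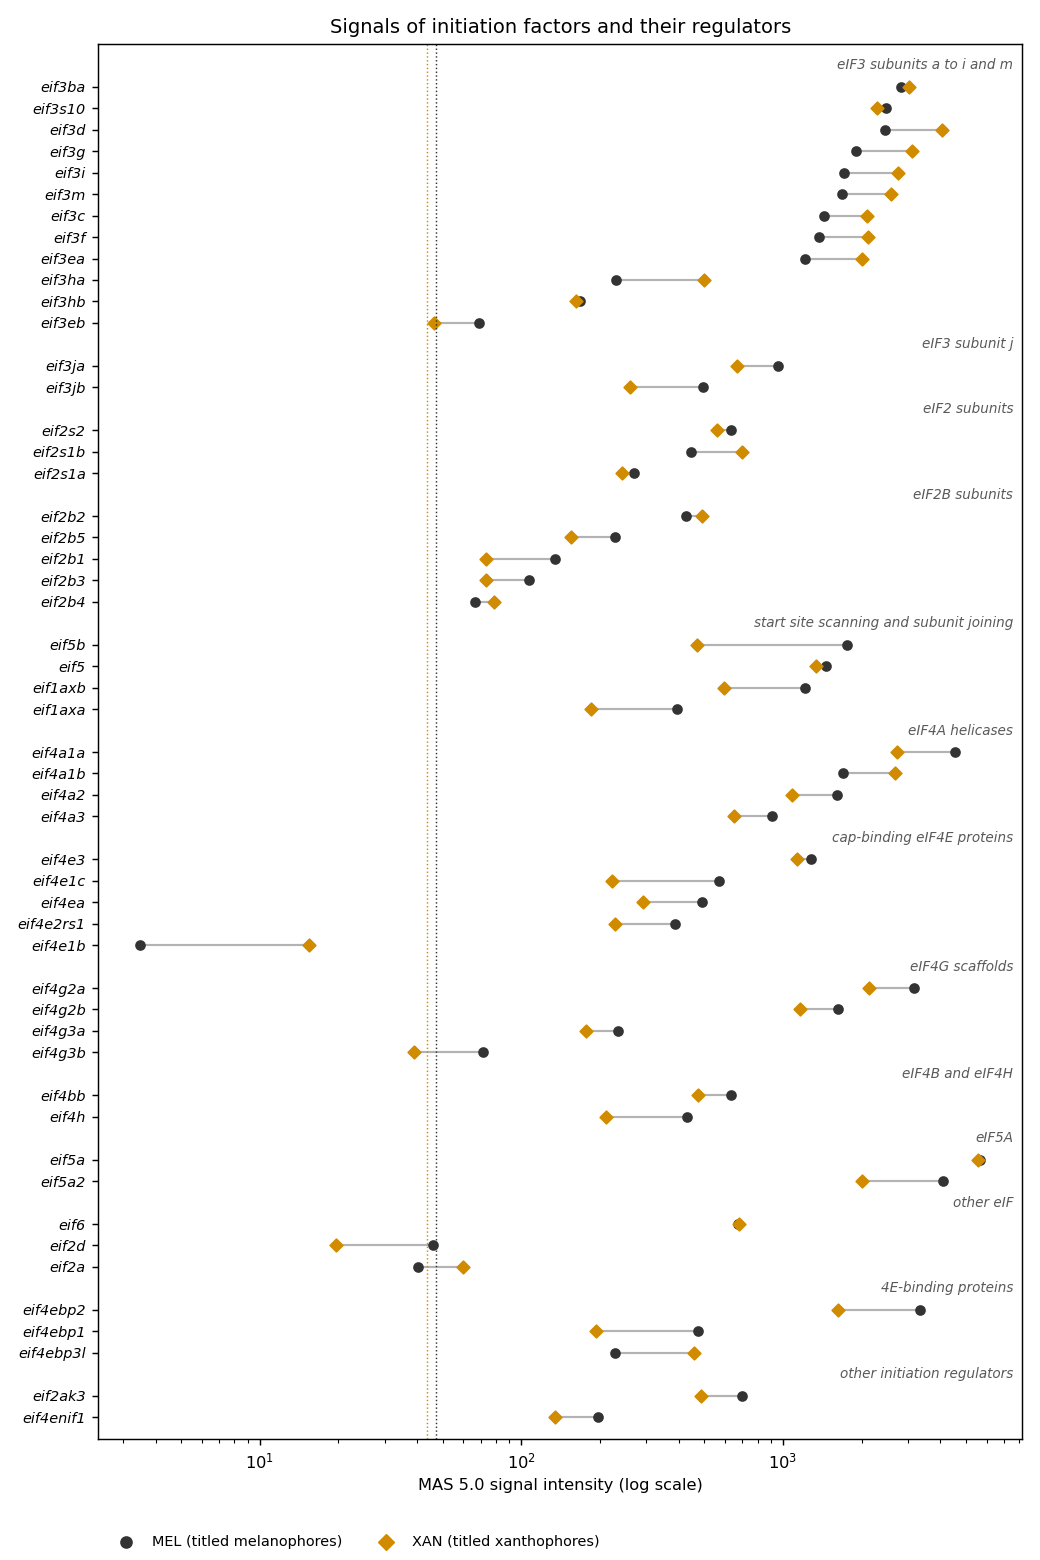
MAS 5.0 signal intensity (horizontal, log scale) of each initiation factor and initiation regulator on MEL (dark circles) and XAN (orange diamonds), grouped by complex. Dotted lines mark the floor of each array (47.2 and 43.5). 9 rows of the eIF3 block have the diamond on the right, while the cap-binding, scaffold and subunit-joining blocks have it on the left, apart from eif4e1b, which lies left of both floors.

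Of 4 genes for factors that scan for the start codon and join the subunits, 3 were 2-fold brighter on MEL as deposited, against 15.5% of all measured genes, and 1 with spike-ins equalised, against 6.56%. The GTPase eif5b, which joins the large subunit to the small one, had the highest ratio of all members, with 1756 on MEL and 470 on XAN, a 3.74-fold difference. With spike-ins equalised it stood at 2.87-fold, and 138 of 5504 measured genes had a higher ratio. Its other probe set read 626 and 208, a log2 ratio of 1.59 beside 1.90 for the brighter probe set. Both genes for eIF1A, which helps the small subunit find the start codon, were also high: eif1axa read 395 and 184 (2.14-fold) and eif1axb 1215 and 593 (2.05-fold). With spike-ins equalised these were 1.64-fold and 1.57-fold. As deposited, the dimmer probe sets of eif1axb gave 1.79-fold and 1.70-fold, under the 2-fold mark, and that of eif1axa gave 2.92-fold. By contrast eif5, the factor that triggers GTP hydrolysis by eIF2 at the start codon, was at 1465 and 1339, a log2 ratio of 0.13.

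Cap-binding proteins of the eIF4E family lay at or above the typical gene, apart from eif4e3. The family member eif4e1c read 568 on MEL and 222 on XAN, 2.56-fold as deposited and 1.96-fold with spike-ins equalised. Its dimmer probe set gave 155 and 104, a log2 ratio of 0.57, so the pair of probe sets agreed in direction and differed in size. The gene eif4ea read 492 and 292 (0.75) and eif4e2rs1 386 and 228 (0.76). The more distant eif4e3 stood at 1284 and 1130 (0.18), and eif4e1b, at 3.5 and 15.4, was under the floor on both arrays.

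The proteins that hold eIF4E in check split by gene. In vertebrates the 4E-binding proteins block eIF4E until TOR phosphorylates them. Signals of eif4ebp1 were 473 and 193 (2.45-fold brighter on MEL, 1.88-fold with spike-ins equalised) and those of eif4ebp2 3338 and 1619 (2.06-fold, 1.58-fold equalised). The third gene, eif4ebp3l, ran the opposite way with 227 and 456, 2.00-fold brighter on XAN and 2.61-fold with spike-ins equalised. Its log2 ratio of -1.003 was the second lowest among the members. Another partner of eIF4E, the shuttling protein gene eif4enif1, stood at 197 and 134 (0.56).

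Genes of the eIF4A helicase and eIF4G scaffold families had ratios near or above the typical gene, with an exception. The eIF4A helicase unwinds the leader of the messenger RNA, and eif4a1a read 4550 and 2722 (0.74), while its duplicate eif4a1b read 1692 and 2678 (-0.66, or 2.06-fold brighter on XAN with spike-ins equalised). The related eif4a2 (1608 and 1082) and the exon junction helicase eif4a3 (905 and 649) had ratios of 0.57 and 0.48. The cofactor gene eif4h, at 428 and 211, was 2.03-fold brighter on MEL and 1.56-fold with spike-ins equalised, and eif4bb stood at 631 and 475 (0.41). The 4 genes of the eIF4G family had ratios from 0.40 (eif4g3a, 234 and 177) to 0.71 (eif4g3b, 71.2 and 38.9, a lower bound). Between them, eif4g2a read 3166 and 2135 (0.57) and eif4g2b 1622 and 1157 (0.49).

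The eIF2 branch, through which stress kinases slow translation, stayed within 2-fold as deposited. The gene eif2s1a for the alpha subunit, the one that is phosphorylated, read 270 and 243 (0.15), and its duplicate eif2s1b 447 and 699.9 (-0.65), which became 2.04-fold brighter on XAN with spike-ins equalised. The beta subunit gene eif2s2 stood at 632 and 559 (0.18). Of the 5 genes for eIF2B, which recharges eIF2 with GTP, eif2b1 (134.5 and 73.4), eif2b3 (107 and 73.2) and eif2b5 (228 and 155) had ratios of 0.87, 0.55 and 0.55. The others were lower, with eif2b2 at 426 and 492 (-0.21) and eif2b4 at 66.3 and 78.7 (-0.25), so the ratios within this complex ran from -0.25 to 0.87. The kinase gene eif2ak3, known as PERK, read 697 and 484 (0.52).

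The remaining initiation factors were eIF5A, which carries hypusine and helps ribosomes through difficult sequences, and a few single genes. Its gene eif5a had nearly equal signals, 5687 and 5570 (0.03), whereas eif5a2 read 4079 and 2003, 2.04-fold brighter on MEL and 1.56-fold with spike-ins equalised. The dimmer probe set of eif5a2 gave 171 and 106 (0.69). The anti-association factor eif6, which keeps the large subunit free, stood at 671.5 and 677 (-0.01). Signals of eif2a were 40.3 and 59.6, at least 1.26-fold brighter on XAN, and eif2d was under the floor on both arrays at 45.8 and 19.6.

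Most elongation factors lay below the typical gene. Of 10 measured genes, 8 were below the all-gene median and 6 among the lowest 25% of all ratios, and the median log2 ratio was -0.11, which turned to 0.39 if ribosomal protein genes are set equal. The eEF2 gene eef2b, whose product moves the ribosome along the message, read 7689 on MEL and 10202 on XAN (-0.41). In the eEF1B complex, which recharges eEF1A with GTP, eef1g read 4889 and 7066 (-0.53) and eef1b2 2700 and 3495 (-0.37), while eef1db was nearly equal at 2887 and 2849 (0.02). The eEF1A gene eef1a1l1 read 12732 and 14180 (-0.16). Measured from equal signals, differences of this size are close to the technical SD of 0.38, and the group is described by its median and range. The 10 ratios ran from -0.53 to 1.11. Relative to the all-gene median, eef1g stood at -0.89, eef2b at -0.76, eef1b2 at -0.73, eef1a1l1 at -0.51 and eef1db at -0.34.

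The other elongation genes included dim paralogs and an exception. Signals of eef1a1a (35.4 and 49.6) and eef1a1l3 (35.8 and 47.9) passed the floor on XAN alone, and those of eef1a1b (79.0 and 22.9) on MEL alone, where it was at least 1.82-fold brighter. Genes for eEF1A are close paralogs, and whether a probe set reads more than one of them was not tested, so these values are uncertain. The gene eef2a.1 stood at 78.5 and 101.1 (-0.37). In contrast to eef2b, the eEF2-like gene eef2l2 read 771 and 357, 2.16-fold brighter on MEL and 1.66-fold with spike-ins equalised, and its 3 measured probe sets had log2 ratios from 1.11 to 1.88.

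Genes with an eef symbol that are not elongation factors were kept apart. The gene eef1e1 belongs in mammals to the scaffold of the multi-synthetase complex, and it read 340.5 and 163, 2.09-fold brighter on MEL and 1.61-fold with spike-ins equalised. The kinase gene eef2k, whose product switches eEF2 off, stood at 180 and 143 (0.33), and eef1akmt2, for a methyltransferase of eEF1A, was under the floor on both arrays.

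Among release factors, the gene for eRF1 and those for eRF3 did not move together. The eRF1 gene etf1b, whose product reads the stop codon, gave 2439 and 1447 (0.75), and its other bright probe set 1411.5 and 964 (0.55). The 2 dim probe sets passed the floor on MEL alone, with lower bounds of 0.38 and 0.77. The eRF3 gene gspt1l, for the GTPase partner of eRF1, gave 1098 and 1456 (-0.41), and gspt1 177 and 170 (0.05).

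Transfer RNA synthetases had the narrowest range of the 3 classes with 10 or more measured genes. All 17 cytosolic genes were measured and all 17 were within 2-fold as deposited and with spike-ins equalised. Most of all measured genes were within 2-fold too. As deposited, 15.5% of them were past 2-fold on MEL and 4.09% on XAN, and with spike-ins equalised 6.56% and 8.21%. Their median log2 ratio was 0.15, 13 of 17 lay below the all-gene median, 1 was among the lowest 25% and none among the highest 25% of all ratios. The lowest ratio was that of the glycyl enzyme gene gars1, with 473 on MEL and 578 on XAN (-0.29). At the other end, the threonyl enzyme gene tars1 read 613 and 374 (0.71), followed by cars1 for cysteine at 100.2 and 68.4 (0.55), hars for histidine at 562 and 399 (0.49) and yars1 for tyrosine at 253 and 188 (0.43).

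In animals several synthetases are held in a complex with scaffold proteins, and 6 members of it were measured here. They ran from -0.05 for the glutaminyl enzyme gene qars1 (161 and 166.5) to 0.32 for the bifunctional glutamyl-prolyl enzyme gene eprs1 (704 and 562). Between them lay iars1 for isoleucine (172.5 and 171), rars1 for arginine (132 and 127), mars1 for methionine (149 and 140) and kars1 for lysine (1177 and 1059), with ratios of 0.01, 0.06, 0.09 and 0.15. Of the scaffold genes, aimp1a stood at 143 and 162 and aimp2 at 527 and 588, with ratios of -0.18 and -0.16, in the opposite direction to eef1e1.

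The other 11 cytosolic enzyme genes ran from -0.29 to 0.71. A range widens with the number of genes, so it is not compared with that of the 6. Alanyl aars1 read 1492 and 1258 (0.25) and asparaginyl nars1 759 and 668 (0.19). Both subunits of the phenylalanyl enzyme were alike, with farsa at 206 and 174.5 (0.24) and farsb at 301 and 278.5 (0.11). Signals of valyl vars1 (71.1 and 69.1) and tryptophanyl wars1 (67.8 and 65) lay near the floor and were nearly equal. The other probe set of vars1 read 37.4 and 59.2, brighter on XAN (-0.33 as a bound). The 5 genes classed as mitochondrial synthetases, by a symbol ending in 2, were too dim to compare. Of these, cars2, fars2, pars2 and wars2 were under the floor on both arrays, and rars2 read 46.1 and 54.3. The cytosolic enzymes for aspartate, leucine and serine were not among the members.

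**Figure D3:**
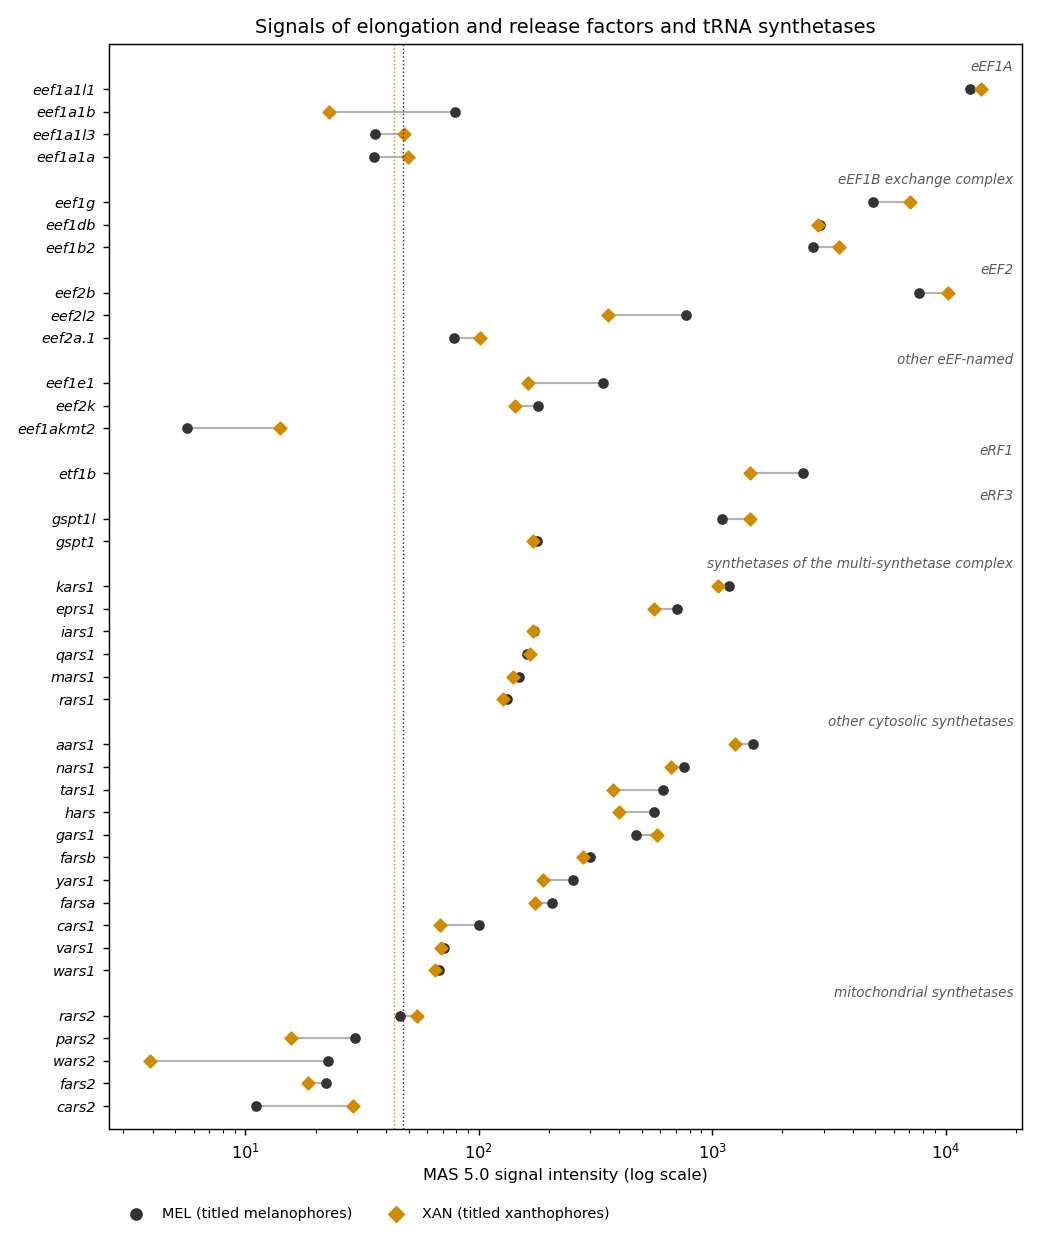
MAS 5.0 signal intensity (horizontal, log scale) of each elongation factor, release factor and tRNA synthetase on MEL (dark circles) and XAN (orange diamonds). Dotted lines mark the floor of each array (47.2 and 43.5). The symbols nearly coincide for most cytosolic synthetases, eef1g and eef2b have the diamond on the right, and 4 of 5 mitochondrial synthetases lie left of both floors.

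Zebrafish keep duplicates of many of these genes from an ancient genome duplication, and the ratios of duplicates were set side by side. The technical SD of a difference between 2 genes was 0.54 on the log2 scale, which leaves out the spread between preparations. It comes from bright probe sets, so it does not measure the error of dim genes such as eif3eb and eif4g3b. The comparison took 8 pairs named a and b, each with both genes measured. Of these, 3 differed by more than 2 such SDs and 1 more by 1.48 of them. These 4 had ratios of opposite sign as deposited, and with spike-ins equalised 2 of them did, the eif4a1 and eif3e pairs. The widest was the helicase pair, where eif4a1a exceeded eif4a1b by 1.40, a 2.65-fold divergence. For eif3ea and eif3eb the gap was -1.31, for eif3ha and eif3hb -1.16, and for eif2s1a and eif2s1b 0.80. In contrast eif1axa and eif1axb differed by 0.07 and eif4g2a and eif4g2b by 0.08. The eif3j pair differed by -0.41 and the eif4g3 pair by -0.31. Constant scaling does not change these gaps. How often duplicates of other genes on the array differ as much was not computed. The eEF1A genes eef1a1a (-0.07) and eef1a1b (0.86), each a bound, were not among the 8 pairs. Their ratios had opposite signs as deposited and with spike-ins equalised (-0.45 and 0.48). Whether a probe set also reads the duplicate was not tested.

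The ratios were also set against brightness, since MAS 5.0 ratios can drift with it. Over 5 equal bins of mean signal, the median of all measured genes rose from 0.13 in the dimmest bin to 0.52 in the next to brightest and was 0.38 in the brightest bin, which held genes above a mean signal of 745. That bin held 32 members, with a median of 0.08. Within it, the 9 eIF3 genes of subunits a to i and m had a median of -0.62 and the 5 elongation factors -0.37, while the 4 eIF4A helicases had 0.53. The bin is wide, with mean signals up to 21404, so its members are not all of like brightness.

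**Figure D4:**
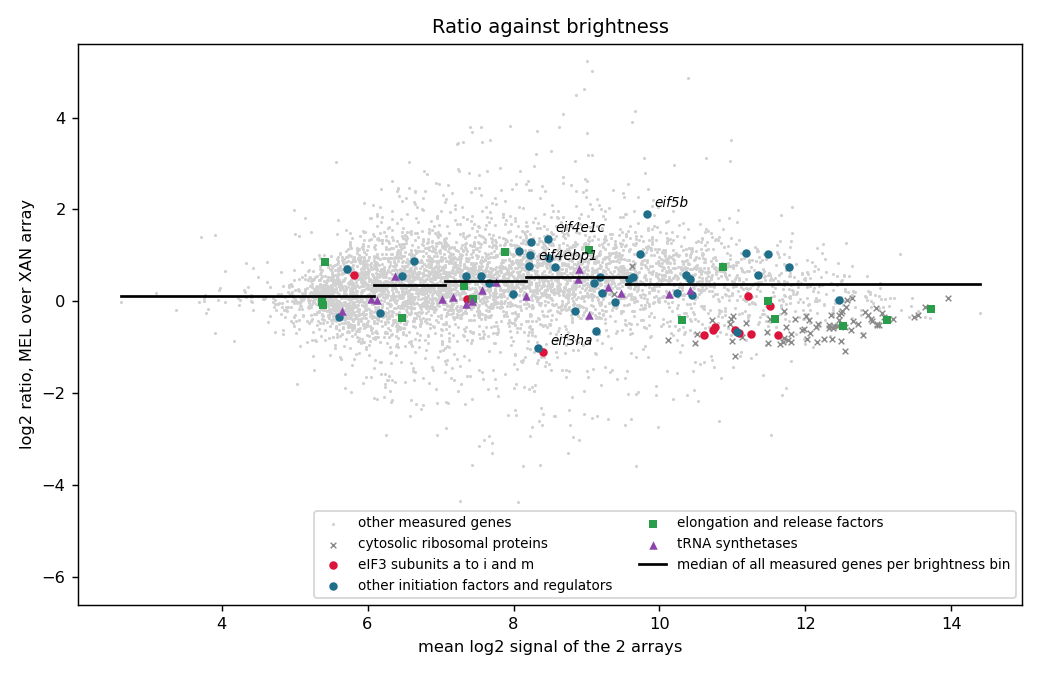
Log2 ratio (vertical axis) against the mean log2 signal of the 2 arrays (horizontal axis) for all measured genes, with the members coloured by role, cytosolic ribosomal proteins as crosses and black lines for the median of all measured genes in each of 5 brightness bins. Most red eIF3 points lie within or below the middle of the ribosomal protein values. The 5 elongation factors of the brightest bin lie below its black line, and eif5b lies above.

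Most eIF3 genes and part of the elongation factors had ratios as low as those of the cytosolic ribosomal protein genes. The 72 ribosomal protein genes, taken by symbol, had a median log2 ratio of -0.50 with the middle of their values between -0.72 and -0.32, and 67 of 72 lay among the lowest 25% of all ratios. Of all 5504 measured genes, 450 (8.18%) lay inside that range, 366 below it and 4688 above it, and 13 of the 82 members (15.9%) lay inside it. Of the 12 genes for eIF3 subunits a to i and m, 5 (41.7%) lay inside that range, 3 below it and 4 above it. Of the 10 elongation factors, 4 lay inside it (eef1g, eef2b, eef1b2 and eef2a.1) and the other 6 above it. The median of the 10, -0.11, lay above it as well, but that place depends on the floor. With no floor, or with the floor at the 25th percentile, the median was -0.37, inside the range. The remaining members inside it were eif4a1b, eif2s1b, gspt1l and eif2a, the last as a bound. With spike-ins equalised, 23 of 72 ribosomal protein genes (31.9%) and 7 of the 12 eIF3 genes (58.3%) were 2-fold brighter on XAN, against 8.21% of all measured genes. Among those 7, eif3f (2.004-fold) and eif3m (2.002-fold) lay right at the cutoff, so the count is sensitive to the scaling. With ribosomal protein genes set equal instead, no member was 2-fold brighter on that array, against 2.31% of all measured genes, and 28 (34.1%) were 2-fold brighter on MEL, against 40.9%.

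Other translation genes gave ratios on both sides. Of 21 listed genes for poly(A)-binding, recycling and accessory proteins, 17 had a probe set of their own and all 17 were measured. Of the 17, 1 was 2-fold brighter on each array, or 5.88%, against 15.5% of all measured genes for MEL and 4.09% for XAN. With spike-ins equalised none was 2-fold brighter on MEL and 2 were on XAN, against 6.56% and 8.21%. Signals of paip2b, an inhibitor of poly(A)-binding protein, were 901 and 397, 2.27-fold brighter on MEL, and those of pabpc4, a poly(A)-binding protein, 85.4 and 211, 2.47-fold brighter on XAN. The gene tpt1, whose message in mammals is regulated like those of ribosomal proteins, read 5501 and 8878 (-0.69), and mcts1, a re-initiation factor, 323 and 172.5 (0.90). Of 10 mitochondrial translation factors, 6 had a probe set of their own and 4 of these were under the floor on both arrays. The measured genes tufm (1084 and 1019) and gfm1 (70.8 and 102) had ratios of 0.09 and -0.53.

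Genes of the TOR pathway, which acts on translation factors, and of the amino acid response, which eIF2 phosphorylation sets off, were brighter on MEL where they differed 2-fold, a difference that 15.5% of all measured genes had. In the TOR pathway list, 16 of 25 genes had a probe set of their own. Of these 16, 15 were measured, with a median of 0.66 against 0.36 for all measured genes. Of the 15, 4 (26.7%) were 2-fold brighter on MEL and none on XAN, against 15.5% and 4.09% of all measured genes. These 4 were the TOR subunit mlst8 (318 and 76.8, 4.15-fold), the TOR inhibitor deptor (437 and 123, 3.56-fold), the Rag GTPase rragca (1062.5 and 382, 2.78-fold) and the lysosomal anchor lamtor2 (691 and 249, 2.78-fold). All 4 (26.7%) stayed past 2-fold with spike-ins equalised, against 6.56% of all measured genes. In the amino acid response list, 13 of 19 genes had a probe set of their own and all 13 were measured, with a median of 0.38. Of the 13, 4 (30.8%) were 2-fold brighter on MEL and none on XAN. The serine synthesis enzyme phgdh read 436 and 99.3 (4.39-fold) and the mitochondrial enzyme shmt2 452 and 104 (4.35-fold), with atf5b and atf5a at 2.10-fold and 2.02-fold. With spike-ins equalised phgdh and shmt2 alone (15.4%) remained past 2-fold in that list, against 6.56% of all measured genes. The transcription factor genes atf4a (3048 and 2868) and atf4b (3843 and 3447) had ratios of 0.09 and 0.16, and asns, an ATF4 target in mammals, stood at 83.1 and 49.2 (0.76).

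**Figure D5:**
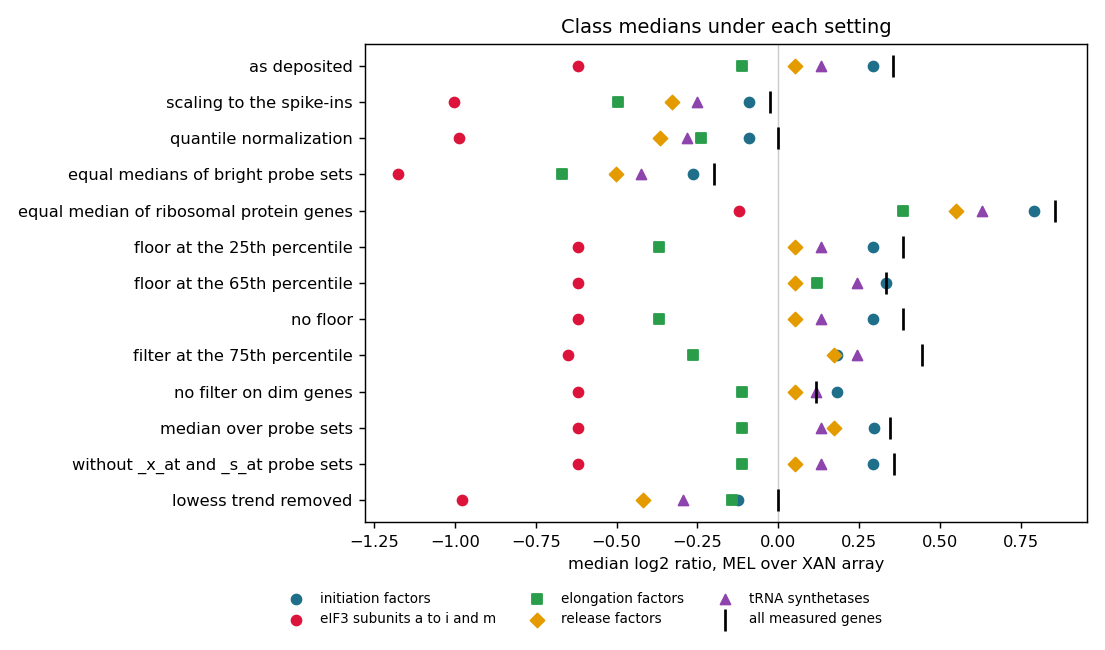
Median log2 ratio (horizontal axis) of initiation factors, eIF3 subunits a to i and m, elongation factors, release factors and tRNA synthetases as deposited and under each of 12 alternative settings (rows), with the median of all measured genes as a black bar. Multiplying an array by a constant moves all symbols of a row together, and eIF3 is the leftmost symbol in every row.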

How the data were processed

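Signal intensity from MAS 5.0, linear and given for 15617 probe sets on each of 2 arrays (115 of them controls), is the only table the authors deposited. Labelling, hybridisation, scanning and MAS 5.0 processing were outsourced, per the labels' protocols. Neither the scaling target nor detection calls were used, being not given in the sources used here.

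Gene names came from the platform annotation, updated by NCBI gene ID (1 changed): 10795 transcript probe sets had 1 symbol, 135 several and 4572 none. Probe sets with several symbols were left out, 3 of which name a translation gene. Each gene was read from its probe set with the highest mean log2 signal. Samples were grouped by title. The text names genes 2-fold or more apart, those with the brightest signals or largest ratios in each class, and those that complete a complex. The members, lists and subgroups were chosen with earlier results of these data known, so they are described and not tested. Ratios, medians and counts were computed in Python 3.11.15 with pandas 2.3.3 and NumPy 2.4.6. The code was tested on simulated large changes in bright probe sets, which do not cover differences near 2-fold or dim genes. The number of arrays limits the precision. Alternatives covered scaling, floor, filter and probe set choice. Removal of a lowess trend (statsmodels 0.14.6) and the results on eIF3 subunits a to i and m were added after seeing the data. A value with no test was said to move when it shifted by more than the technical SD of 0.38.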

Additional observations from a re-analysis of the deposited data

How the results depend on the processing

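Scaling decided the sign of most class medians, while the gap between eIF3 and the other initiation factors stayed between -1.16 and -1.02 under all 12 alternatives. Those alternatives that multiply an array by a constant could not change this gap. The medians are given in the order initiation factors, release factors and tRNA synthetases, which stood at 0.29, 0.05 and 0.13 as deposited. All 3 turned negative with spike-ins equalised (-0.0895, -0.33 and -0.25), with quantile normalization (-0.0893, -0.37 and -0.28), with equal medians of bright probe sets (-0.26, -0.50 and -0.42) and with the lowess trend removed (-0.12, -0.42 and -0.30). They rose to 0.79, 0.55 and 0.63 with ribosomal protein genes set equal. The elongation factor median of -0.11 became -0.50 with spike-ins equalised and -0.67 with equal bright medians, and 0.39 once ribosomal protein genes were matched. It also turned, to 0.12, with the floor at the 65th percentile, where 3 eEF1A genes lie under both floors and take their ratio (0.33), and eef2a.1 becomes a bound and moves from -0.37 to 0.22. The elongation factor median was -0.37 with no floor and with the floor at the 25th percentile. The eIF3 median of -0.62 became -1.002, -1.18 and -0.12 with spike-ins, bright medians and ribosomal protein genes set equal. Members 2-fold brighter on MEL and on XAN, 10 and 2 as deposited, numbered 1 and 10 with spike-ins equalised, 1 and 8 with quantile normalization, 1 and 12 with equal bright medians, 28 and 0 with ribosomal protein genes set equal, and 1 and 8 with the lowess trend removed. As member shares these were 12.2% and 2.44%, 1.22% and 12.2%, 1.22% and 9.76%, 1.22% and 14.6%, 34.1% and 0%, and 1.22% and 9.76%. Those of all measured genes were 15.5% and 4.09%, 6.56% and 8.21%, 6.29% and 8.01%, 4.43% and 11.6%, 40.9% and 2.31%, and 6.22% and 8.23%. Of the 12 members that differed 2-fold, eif5b did so under all 12 alternatives (2.54-fold to 5.28-fold), and eif3ha and eif4ebp3l under 11 each. The other 9 fell under 2-fold with each of the 4 scalings that lower MEL. Taking the median of all probe sets of a gene, eif1axb, eif4e1c and eif5a2 were under 2-fold as well. No paired analysis was possible because each title has 1 array. A promoter motif search was not run, since no promoter sequence was used here. Having 1 array for each title leaves the spread between preparations unknown.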
